A study of Mus musculus with 9 samples.

Results

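The aminoacyl-tRNA synthetases are the enzymes that load each amino acid onto its transfer RNA (tRNA), the step that sets which amino acid a codon is read as. The genes were taken by symbol: every gene whose symbol is an amino acid's letter followed by "ars", with or without a final digit, plus Eprs, Farsa, Farsb and Tarsl2. This gave 35 of the 19938 genes tested, 19 whose enzymes work in the cytosol and 16 whose enzymes work in mitochondria. Aars is read only by a probe set shared with Exosc6, so it was left out.

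Mammalian cells keep a cytosolic set of these enzymes and a second nuclear-encoded set for mitochondrial protein synthesis, usually named with a final digit. Gars and Kars each supply both compartments from a single gene and are counted as cytosolic here. Several cytosolic enzymes are held in a multisynthetase complex by the scaffold proteins Aimp1, Aimp2 and Eef1e1, and the enzymes fall into structural classes I and II by the fold of their catalytic domain. In marrow, dividing erythroid and myeloid precursors make much protein, and several of the cytosolic genes are known targets of ATF4, the transcription factor of the amino acid starvation response.

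Marrow from the femur of C57BL6 mice was compared on 9 Affymetrix whole-transcript arrays in 3 groups of 3. The ERG leukemia group held whole marrow of 3 mice that carry an ERG transgene and had a myeloid leukemia, taken when signs of leukemia appeared (ERG, an ETS transcription factor, acts in normal blood stem cells). The wild type lineage-negative (Lin-) group held 3 pools of 3 wild type mice each, whose mature blood cells had been removed with a lineage depletion kit. The wild type whole marrow group held 3 single mice, undepleted, so the leukemia and the whole marrow samples are of the same kind of tissue and the Lin- pools are an enriched fraction. The promoter that drives the transgene, the species of the ERG sequence, and the age and sex of the mice are not given in the labels. Replicate error in the Lin- group is between pools, which average 3 mice each, and not between mice.

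Values are RMA intensities, a normalized brightness per probe set, given here on the log2 scale, and a difference of 1 is a doubling. Array medians lay between 32.3 and 34.4 intensity units, and arrays of 1 group correlated at 0.973 to 0.995 over all genes. The titles of leukemia mice 1 and 2 differ only by a final digit, and their arrays gave the lowest correlation of the leukemia pairs (0.973). A change was called where the Benjamini-Hochberg adjusted p over all 19938 genes was under 0.05 in a limma model of the 9 arrays. The number of arrays limits the precision, and fewer cells of a type and less RNA per cell cannot be told apart in whole tissue.

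The makeup of the samples differed between the groups. Summed intensity of 10 mature neutrophil markers was 14368.2 to 21027.6 in the leukemia arrays, 715.2 to 2131.8 in the Lin- pools and 34390.9 to 40762.2 in whole marrow. Of 9 measured B cell markers, 9 fell in leukemia against whole marrow, and their sum was 383.3 to 568.2 in leukemia, 327.5 to 494.2 in Lin- and 1260.4 to 5397.4 in whole marrow. In leukemia 5 of these 9 (Ebf1, Pax5, Vpreb1, Vpreb3 and Igll1) lay below the median intensity of the array, and in the Lin- pools 7 did. The 7 measured erythroid markers summed to 4471.0 to 7649.4 in leukemia, 4330.2 to 6117.3 in Lin- and 1273.2 to 3880.8 in whole marrow. Proliferation markers (9 measured) summed to 10248.5 to 10690.5 in leukemia, 9474.0 to 10866.8 in Lin- and 7298.9 to 8707.9 in whole marrow. The 7 stem and progenitor markers summed to 1441.6 to 2664.3 in leukemia, 2013.9 to 3056.8 in Lin- and 710.0 to 889.8 in whole marrow, and the 9 T and NK cell markers to 526.8 to 698.1, 817.5 to 1732.1 and 1261.4 to 1712.8 in leukemia, Lin- and whole marrow. The stem and progenitor markers did not move together between leukemia and whole marrow. Gata2 and Slamf1 were higher in leukemia, Cd34 and Procr were lower and 3 did not pass, with a median log2 difference of -0.31. Procr lay below the median intensity in every group (mean log2 4.24 in leukemia and 4.54 in whole marrow), so its call rests on dim signal.

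The sequences upstream of 5 members are shown first, because these genes carry the comparisons below or hold a searched motif near their start. RefSeq (GRCm38.p6) gave a promoter, from 250 bases before to 50 bases after the start, for 26 of the 35 members, 27 promoters in all. Cars, Hars, Hars2, Lars, Nars, Pars2, Rars, Vars and Wars had no entry. Both strands were searched for CACGTG, the E-box that MYC and related factors bind, and for TGATGNAA, the C/EBP-ATF element that ATF4 binds. Each line gives the 120 bases just before the start, read 5′ to 3′ on the gene's strand, and capitals mark a motif. Tars lies at chr15:11399659-11399778 (minus strand), Iars at chr13:49682010-49682129 (plus), Gars at chr6:55037881-55038000 (plus), Farsb at chr1:78488898-78489017 (minus) and Yars2 at chr16:16302845-16302964 (plus).
Tars: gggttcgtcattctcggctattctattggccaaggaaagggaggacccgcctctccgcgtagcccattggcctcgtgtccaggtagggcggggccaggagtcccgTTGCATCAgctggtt
Iars: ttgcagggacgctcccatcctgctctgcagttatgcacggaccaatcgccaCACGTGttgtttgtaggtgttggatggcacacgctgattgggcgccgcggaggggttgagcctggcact
Gars: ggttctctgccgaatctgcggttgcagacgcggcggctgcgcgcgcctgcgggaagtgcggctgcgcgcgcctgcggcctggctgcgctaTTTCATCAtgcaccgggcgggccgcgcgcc
Farsb: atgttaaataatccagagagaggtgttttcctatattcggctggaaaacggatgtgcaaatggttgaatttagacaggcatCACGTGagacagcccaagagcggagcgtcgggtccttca
Yars2: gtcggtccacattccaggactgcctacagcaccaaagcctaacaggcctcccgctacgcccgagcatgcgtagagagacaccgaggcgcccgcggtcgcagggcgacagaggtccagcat

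The element of Tars and that of Gars are read on the opposite strand, so the capitals TTGCATCA and TTTCATCA are the reverse complements of a TGATGNAA match. They begin 15 bases (Tars) and 30 bases (Gars) before the start. The E-box of Iars begins 69 bases and that of Farsb 39 bases before the start. No capitals stand in Yars2, the member with the largest fall against Lin- marrow, which says only that these letters are not in this window. Further matches lie past the start, outside the printed stretch: TGATGNAA begins at base 8 in Iars and base 4 in Yars, and CACGTG at base 20 in Tars and base 22 in Ears2.

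CACGTG stood in 4 of the 27 synthetase promoters (14.8%), against 7.15% of all 32851 promoters of the same length. TGATGNAA also stood in 4 of 27 (14.8%), against 3.97% of all promoters. Both motifs stood together in the promoters of Iars and Tars, 2 of 27 (7.41%), against 0.201% of all promoters. By compartment, TGATGNAA was found in 4 of 12 cytosolic and 0 of 15 mitochondrial promoters, and CACGTG in 3 of 12 and 1 of 15. A match is a description of the letters and not evidence that a factor binds there.

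**Figure D1:**
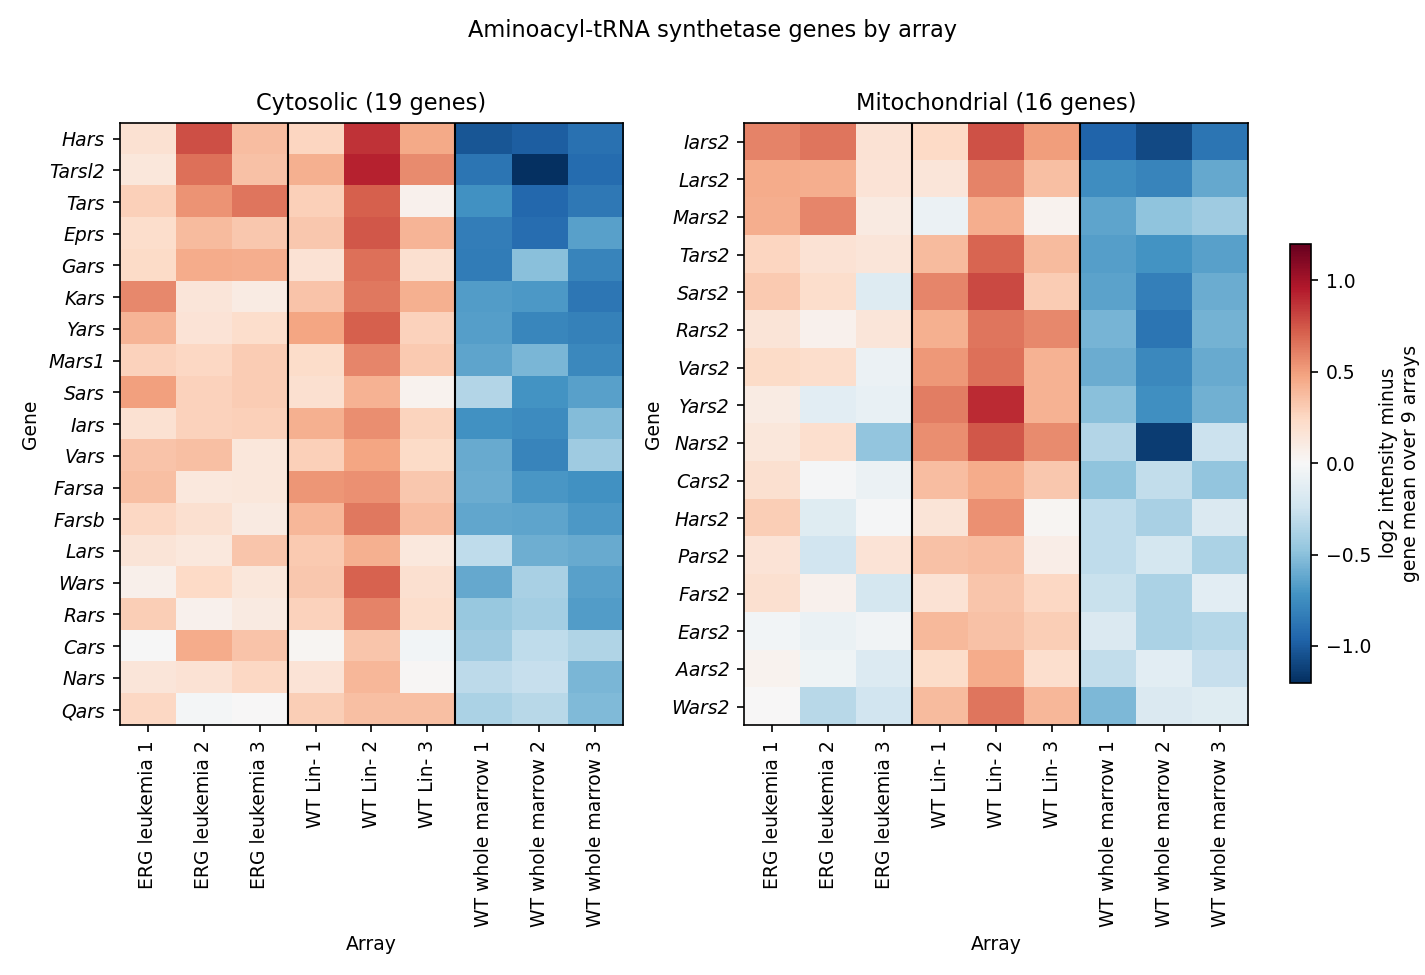
Log2 intensity of each synthetase gene minus its own mean over the 9 arrays (colour, red above and blue below the mean), with 1 row a gene and 1 column an array, cytosolic genes left and mitochondrial genes right, ordered by the leukemia minus whole marrow difference. Every cytosolic row is red in leukemia and Lin- columns and blue in whole marrow columns apart from a few near-white leukemia or Lin- cells, and the lower mitochondrial rows are pale or blue in leukemia.

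The first comparison, ERG leukemia against wild type whole marrow, shows what differs in leukemic marrow from marrow of the same kind. Of the 35 synthetase genes, 29 rose in leukemia, 0 fell and 6 did not pass the test. Among all genes 24.5% passed, 14.6% as higher and 9.93% as lower. The median log2 difference was 0.82 over the synthetases (from 0.10 to 1.44) and -0.02 over all genes. The leukemia arrays lay above all whole marrow arrays in 30 of the 35, against 19.4% of all genes, and below them in 0, against 17.7%. Neutrophil, B cell and T and NK cell markers fell in the same comparison (7 of 10, 9 of 9 and 7 of 9), while 4 of 7 erythroid and 5 of 9 proliferation markers rose. Of 7 stem and progenitor markers, 2 rose and 2 fell. The part of these marker changes in the result was not tested.

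All 19 cytosolic genes rose, by a median of 0.92 on the log2 scale (0.50 in Qars to 1.42 in Hars), and in each of them the leukemia and whole marrow arrays did not overlap. Hars, which charges histidine, read 8.49, 9.08 and 8.68 in leukemia and 7.28, 7.32 and 7.41 in whole marrow. The leukemia mice were spread out while the whole marrow mice were nearly level, and every leukemia value stood above every whole marrow value. Hars differed by 1.42 ± 0.18 (SE), 2.67-fold, with limma adjusted p = 0.00141.

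Tarsl2, the second cytosolic threonyl enzyme, read 7.20, 7.73 and 7.42 in leukemia and 6.19, 5.79 and 6.14 in whole marrow. All leukemia arrays stood above all whole marrow arrays, and the difference was 1.41 ± 0.18 (SE), 2.65-fold, limma adjusted p = 0.00131. Tars, the main cytosolic threonyl enzyme, had 7.47, 7.72 and 7.83 in leukemia and 6.46, 6.24 and 6.33 in whole marrow. Again no arrays overlapped, and Tars rose by 1.33 ± 0.17 (SE), 2.51-fold, limma adjusted p = 0.00128. Both genes for cytosolic threonine charging were thus among the 3 cytosolic members with the widest differences.

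Eprs encodes a single protein with a glutamyl and a prolyl enzyme and belongs to the multisynthetase complex. It read 8.66, 8.83 and 8.78 in leukemia and 7.62, 7.54 and 7.80 in whole marrow, tight in both groups and apart by 1.10 ± 0.12 (SE), 2.15-fold, limma adjusted p = 0.000894. Wars, which charges tryptophan and is known to be induced by interferon gamma, read 7.81, 7.99 and 7.89 in leukemia and 7.14, 7.36 and 7.10 in whole marrow. The groups did not overlap, and Wars rose by 0.69 ± 0.14 (SE), 1.62-fold, limma adjusted p = 0.00754. The smallest cytosolic differences were in Qars (0.50 ± 0.09, 1.41-fold), Nars (0.57 ± 0.11, 1.48-fold) and Cars (0.62 ± 0.13, 1.54-fold), the glutaminyl, asparaginyl and cysteinyl enzymes. The other cytosolic genes (Farsa, Farsb, Gars, Iars, Kars, Lars, Mars1, Rars, Sars, Vars and Yars) rose by between 0.66 in Rars and 1.08 in Gars on the log2 scale, 1.58-fold to 2.12-fold.

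Enzymes inside and outside the complex moved the same way. The 7 enzymes of the complex measured here (Eprs, Iars, Kars, Lars, Mars1, Qars and Rars) all rose, with a median of 0.92, and the 12 other cytosolic genes all rose, with a median of 0.91. By structural class the cytosolic medians were 0.70 over 9 class I and 1.02 over 9 class II genes, with Eprs, which holds a domain of each class, in neither. Iars, the isoleucyl enzyme, has a second, dimmer probe set, which read 9.33, 9.53 and 9.29 in leukemia and 8.16, 8.11 and 8.32 in whole marrow, against 9.72, 9.81 and 9.82 and 8.81, 8.78 and 9.01 on the probe set used. Leukemia was higher on both.

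**Figure D2:**
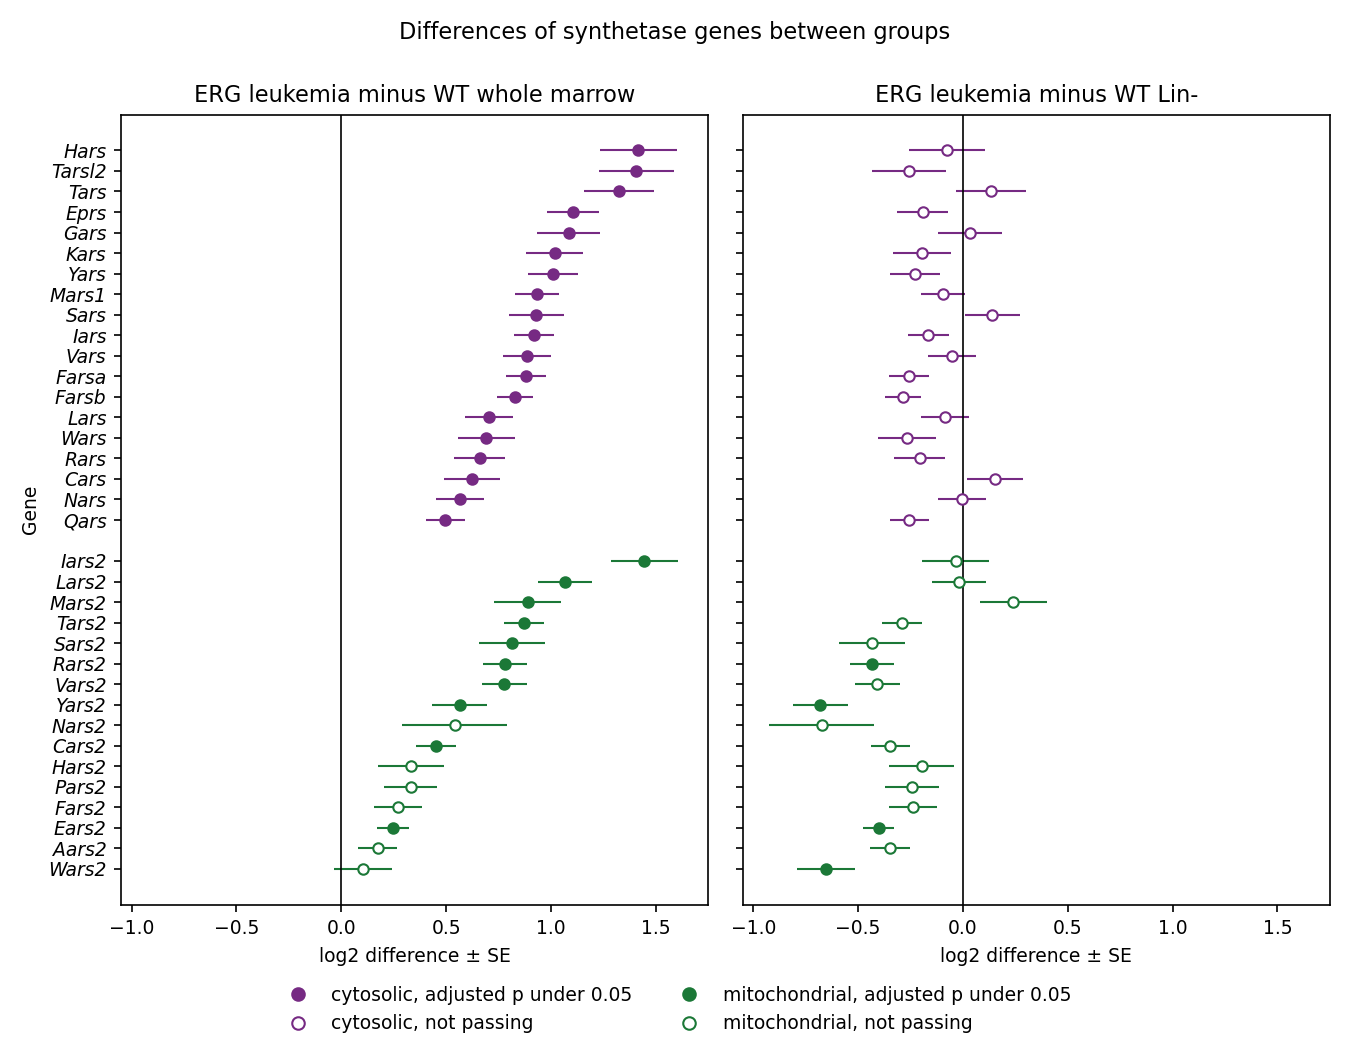
Log2 difference of each synthetase gene in limma with its standard error (horizontal axis, points with bars, filled where the adjusted p was under 0.05), with leukemia minus whole marrow left and leukemia minus Lin- right, cytosolic genes above mitochondrial genes. In the left panel the 19 cytosolic genes lie from 0.50 to 1.42 and the 16 mitochondrial genes from 0.10 to 1.44, while in the right panel 30 of the 35 points lie left of 0.

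Of the 16 mitochondrial genes, 10 rose, 0 fell and 6 did not pass, and their median was 0.55. Iars2, the mitochondrial isoleucyl enzyme, showed the widest difference of all 35 members. It read 8.69, 8.74 and 8.27 in leukemia and 7.14, 7.01 and 7.22 in whole marrow. Leukemia mouse 3 was lowest of its group yet above every whole marrow value, and the difference was 1.44 ± 0.16 (SE), 2.72-fold, limma adjusted p = 0.000884.

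Lars2, which charges leucine in mitochondria, read 6.48, 6.47 and 6.20 in leukemia and 5.29, 5.24 and 5.42 in whole marrow. The groups were apart by 1.07 ± 0.13 (SE), 2.09-fold, limma adjusted p = 0.00114, and leukemia mouse 3 was again lowest of its group. Mars2, the mitochondrial methionyl enzyme, had 7.09, 7.24 and 6.76 in leukemia and 6.02, 6.17 and 6.23 in whole marrow. It rose by 0.89 ± 0.16 (SE), 1.85-fold, limma adjusted p = 0.00496, with mouse 3 the lowest leukemia value once more. The other mitochondrial genes that rose were Tars2 (0.87 ± 0.09), Sars2 (0.82 ± 0.16), Rars2 (0.78 ± 0.10), Vars2 (0.78 ± 0.11), Yars2 (0.56 ± 0.13), Cars2 (0.45 ± 0.09) and Ears2, each named for the amino acid it charges in mitochondria. With cyclic loess the mitochondrial count was 8, and Cars2 (0.29, limma adjusted p = 0.0503) and Ears2 were lost.

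The 6 mitochondrial genes that did not pass were Wars2 (0.10 ± 0.14), Aars2 (0.17 ± 0.09), Fars2 (0.27 ± 0.11), Pars2 (0.33 ± 0.13), Hars2 (0.33 ± 0.16) and Nars2 (0.54 ± 0.25), all values being leukemia minus whole marrow on the log2 scale ± SE. Their limma adjusted p lay between 0.101 and 0.669, and 5 of the 6 are class II enzymes, Wars2 being the exception. By class, 8 of 9 class I mitochondrial genes rose (median 0.78) and 2 of 7 class II genes did (median 0.33). The counts rest on the threshold, as all 7 class II differences were above 0. Aars2 and Pars2 of class II averaged below the median intensity, as did Ears2 of class I. Cars2 and Ears2 of class I lost their calls with cyclic loess. In the cytosol the order was the other way, with medians of 0.70 in class I and 1.02 in class II. Wars2, for tryptophan, read 6.03, 5.69 and 5.79 in leukemia and 5.48, 5.85 and 5.88 in whole marrow, so the groups overlapped. The 95% interval of its difference ran from -0.21 to 0.42, which leaves out a rise as large as the median of the cytosolic genes.

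Nars2, for asparagine, read 6.70, 6.76 and 6.09 in leukemia and 6.21, 5.42 and 6.30 in whole marrow. Leukemia mouse 3 and whole marrow mouse 2 were far below the others of their groups, and Nars2 had the widest replicate spread of any member in both groups (SD 0.37 in leukemia and 0.49 in whole marrow). Ears2, the glutamyl enzyme, passed narrowly at 0.25 ± 0.08 (SE), 1.19-fold, limma adjusted p = 0.0429, and of the 9 fits without 1 array it passed only in that without whole marrow 1. The Ears2 call was also lost with 75th percentile centring (0.16), cyclic loess, only the 2 groups, trend and robust settings and the filter on dim genes (adjusted p 0.0604 to 0.262). Aars2, Ears2 and Pars2 averaged below the median intensity of all probe sets (log2 5.06). Over the other 13 mitochondrial genes the median was 0.78, against 0.92 over the cytosolic genes, a split chosen after seeing the data.

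The second comparison, ERG leukemia against wild type Lin- marrow, sets the leukemia beside normal marrow enriched for immature cells. It shares the leukemia arrays with the first. No synthetase rose and 4 of 35 fell, all 4 mitochondrial, while 31 did not pass. Among all genes 8.69% passed, 2.95% as higher and 5.74% as lower. The median log2 difference was -0.23 over the synthetases (from -0.68 to 0.24) and 0.01 over all genes. Leukemia arrays lay below all Lin- arrays in 11 of 35 synthetases, against 16.3% of all genes, and above them in 0, against 11.6%.

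None of the 19 cytosolic genes passed in limma, and at an unadjusted p under 0.05 there were 3, all lower (Farsa, Farsb and Qars). At that unadjusted threshold 4511 of all 19938 genes passed, 1661 as higher and 2850 as lower. Their differences ran from -0.28 in Farsb to 0.15 in Cars, with a median of -0.16, and 15 of 19 were below 0. The 95% intervals of the 19 differences reached from -0.66 to 0.51, and a p that misses the threshold does not show equal levels. With cyclic loess scaling, the differences of Hars, Lars, Mars1, Nars, Vars, Iars2 and Lars2 changed sign and lay between 0.006 and 0.071, so the side of 0 on which these genes lie is not settled. Farsb, the beta subunit of the cytosolic phenylalanyl enzyme and the member with the E-box at 39 bases, read 8.87, 8.81 and 8.73 in leukemia and 9.02, 9.25 and 8.99 in Lin-. The arrays did not overlap, and the difference of -0.28 ± 0.09 (SE) had limma adjusted p = 0.0795.

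The values of the cytosolic genes with the widest rise over whole marrow lay close to those of the Lin- pools. Hars read 8.49, 9.08 and 8.68 in leukemia and 8.56, 9.17 and 8.76 in Lin-. Tars read 7.47, 7.72 and 7.83 in leukemia and 7.47, 7.90 and 7.24 in Lin-. Tarsl2 read 7.20, 7.73 and 7.42 in leukemia and 7.49, 7.99 and 7.63 in Lin-. The groups overlapped in all 3, and the differences of -0.08 ± 0.18 for Hars, 0.13 ± 0.17 for Tars and -0.26 ± 0.18 for Tarsl2 (SE) did not pass. Eprs (8.66, 8.83 and 8.78 in leukemia, 8.78, 9.20 and 8.86 in Lin-) had a difference of -0.19 ± 0.12 and did not pass. Wars (7.81, 7.99 and 7.89 in leukemia, 8.08, 8.46 and 7.94 in Lin-) had a difference of -0.27 ± 0.14 and did not pass, and in both genes the groups overlapped.

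Among the 16 mitochondrial genes, 4 fell, 12 did not pass and 15 of the 16 differences were below 0, with a median of -0.35. At an unadjusted p under 0.05 there were 10, all lower, against 2850 lower and 1661 higher of all 19938 genes. Yars2, the mitochondrial tyrosyl enzyme, read 7.68, 7.46 and 7.49 in leukemia and 8.20, 8.48 and 8.0 in Lin-. Every leukemia value was below every Lin- value, and Yars2 fell by 0.68 ± 0.13 (SE) on the log2 scale, to 1.60-fold lower, limma adjusted p = 0.0167.

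Wars2 read 6.03, 5.69 and 5.79 in leukemia and 6.40, 6.66 and 6.42 in Lin-. It fell by 0.65 ± 0.14 (SE), 1.57-fold lower, limma adjusted p = 0.0238, so its leukemia level was apart from Lin- and overlapped that of whole marrow. Rars2, for arginine, read 7.71, 7.61 and 7.70 in leukemia and 7.98, 8.20 and 8.13 in Lin-. The leukemia mice were close together (SD 0.06), and Rars2 fell by 0.43 ± 0.10 (SE), 1.35-fold lower, limma adjusted p = 0.0391. The Rars2 call was lost with either other scaling, with trend and robust settings, and in 7 of the 9 fits without 1 array (adjusted p 0.0528 to 0.125).

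Ears2 read 4.90, 4.85 and 4.89 in leukemia and 5.32, 5.28 and 5.23 in Lin-, with leukemia below the median intensity. It fell by 0.40 ± 0.08 (SE), 1.32-fold lower, limma adjusted p = 0.0151. All 4 genes that fell are class I enzymes, 4 of 9 of that class in mitochondria, against 0 of 7 of class II. This contrast rests on the threshold, as all 7 class II differences were below 0 too. Their median was -0.29, against -0.4 in class I. The class II genes Nars2 (-0.67 ± 0.25) and Sars2 (-0.43 ± 0.16) differed about as widely as Wars2 and Rars2 but did not pass. The count of 4 went to 0 without Lin- pool 1, to 2 without Lin- pool 2, Lin- pool 3 or leukemia mouse 2, and to 1 without leukemia mouse 3. In this comparison 9 of 10 neutrophil markers were higher in leukemia and 3 of 7 stem and progenitor markers were lower, and the part of these in the result was not tested.

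**Figure D3:**
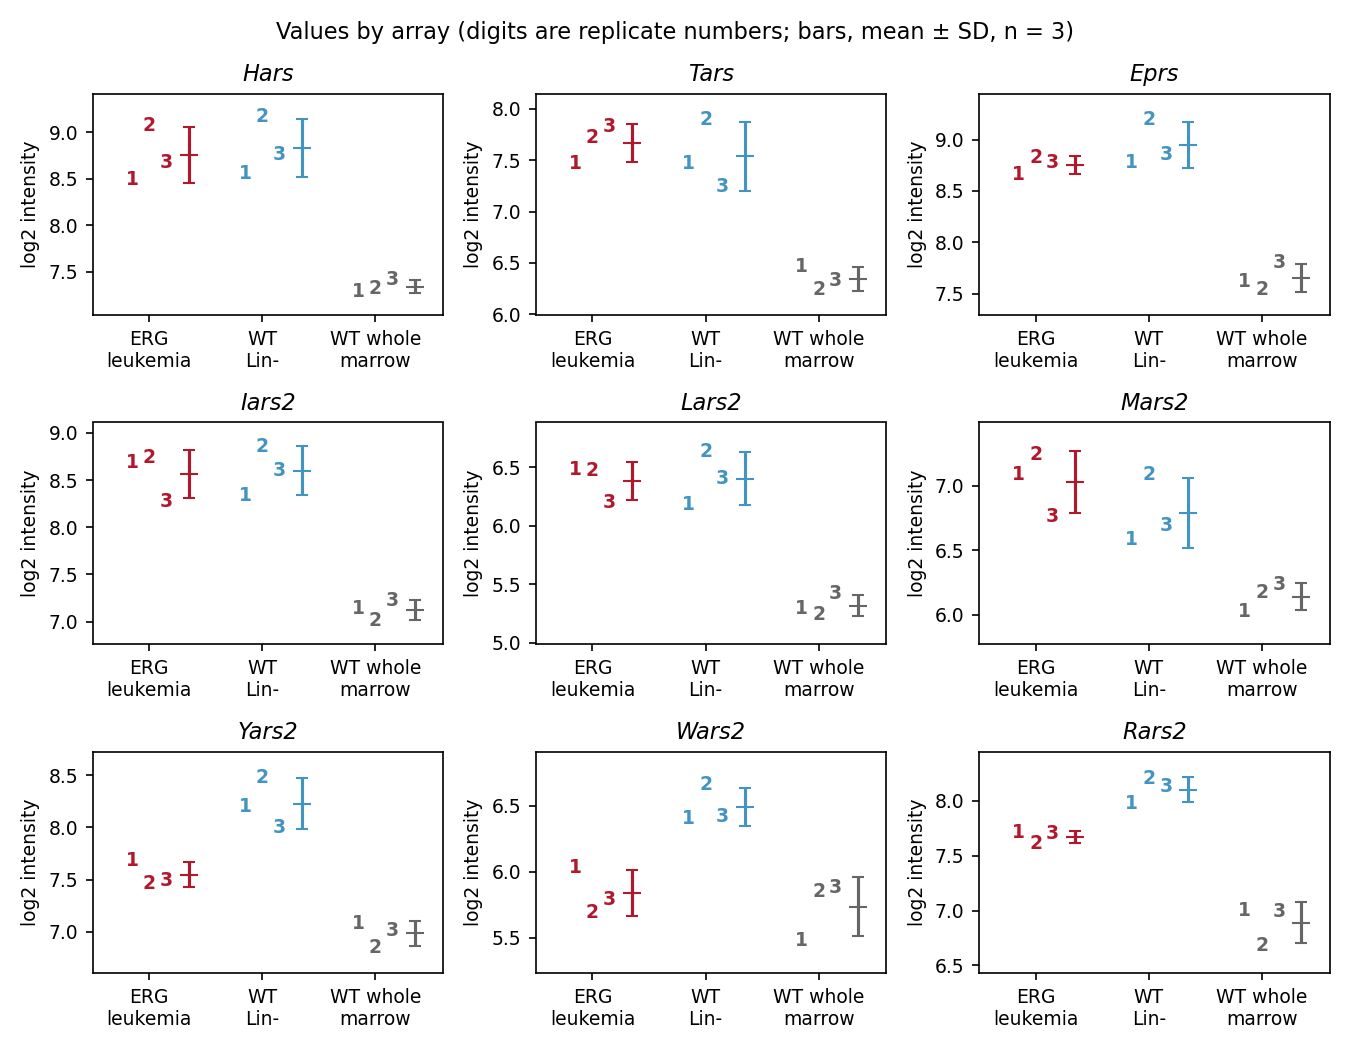
Log2 intensity of members named in the text in each array (vertical axis, digits giving the replicate, ERG leukemia left, WT Lin- in the middle, WT whole marrow right), with bars for the mean ± SD (n = 3). In Hars, Tars and Iars2 the leukemia and Lin- arrays overlap, whereas in Yars2, Rars2 and Wars2 every leukemia array lies below every Lin- array.

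The third comparison, wild type Lin- against wild type whole marrow, gives the normal difference between the enriched and the whole tissue, and it shares arrays with both of the others. All 35 synthetases rose in Lin-, with a median of 1.05 (0.47 in Cars to 1.66 in Tarsl2), against -0.04 over all genes. With cyclic loess scaling 30 of 35 passed, with Cars (0.21), Nars, Fars2, Hars2 and Mars2 lost, and with 75th percentile centring 34 did. Among all genes 34.7% passed, 21.7% as higher and 13.0% as lower. All 35 had Lin- arrays above all whole marrow arrays, against 26.6% of all genes, and 0 below, against 23.4%. In the same comparison 10 of 10 neutrophil, 9 of 9 B cell and 5 of 9 T and NK cell markers fell while 6 of 7 stem and progenitor, 3 of 7 erythroid and 4 of 9 proliferation markers rose, and the part of these in the result was not tested.

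Tarsl2 read 7.49, 7.99 and 7.63 in Lin- and 6.19, 5.79 and 6.14 in whole marrow, a rise of 1.66 ± 0.18 (SE), 3.17-fold, limma adjusted p = 0.00022. Hars rose by 1.49 ± 0.18 (2.81-fold, limma adjusted p = 0.000393) and Eprs by 1.30 ± 0.12 (2.46-fold, limma adjusted p = 0.000137). In mitochondria, Iars2 read 8.34, 8.86 and 8.60 in Lin- and 7.14, 7.01 and 7.22 in whole marrow, a rise of 1.48 ± 0.16 (2.79-fold, limma adjusted p = 0.00023). Lin- pool 2 was the highest of the pools in Tarsl2, Hars, Eprs and Iars2, and this was not particular to them. Centred on each gene's mean over the 9 arrays, the median over all synthetases was 0.60 in pool 2, 0.33 in pool 1 and 0.30 in pool 3.

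Sars2, for serine, read 7.08, 7.29 and 6.80 in Lin- and 5.85, 5.67 and 5.90 in whole marrow, and rose by 1.25 ± 0.16 (2.38-fold, limma adjusted p = 0.000444). Yars2 read 8.20, 8.48 and 8.0 in Lin- and 7.08, 6.85 and 7.01 in whole marrow, and rose by 1.24 ± 0.13 (2.37-fold, limma adjusted p = 0.0002). Lars2 rose by 1.08 ± 0.13 (2.12-fold) and Wars by 0.96 ± 0.14 (1.94-fold). The cytosolic and mitochondrial medians were 1.05 and 0.94, beside 0.92 and 0.55 in leukemia minus whole marrow. Over the 13 mitochondrial genes above the median intensity the Lin- median was 1.16.

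Set against both wild type tissues, the leukemia mean lay between the Lin- and whole marrow means in 15 of 19 cytosolic and 15 of 16 mitochondrial genes. It lay above both in Cars, Gars, Sars, Tars and Mars2, though none of these 5 passed against Lin-. Centred on each gene's mean over the 9 arrays, the median cytosolic value was 0.25, 0.25 and 0.29 in the leukemia arrays, 0.29, 0.59 and 0.27 in the Lin- pools and -0.62, -0.69 and -0.67 in whole marrow. The 3 leukemia mice were thus level for the cytosolic set, and Lin- pool 2 stood above the others.

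The median mitochondrial value was 0.20, 0.05 and -0.06 in leukemia mice 1, 2 and 3, 0.37, 0.62 and 0.34 in the Lin- pools and -0.52, -0.60 and -0.45 in whole marrow. The mitochondrial minus cytosolic difference was -0.05, -0.20 and -0.34 in the leukemia mice, 0.08, 0.03 and 0.08 in Lin- and 0.10, 0.10 and 0.22 in whole marrow, so all 3 leukemia arrays were below all 6 wild type arrays. Leukemia mouse 3 was lowest of its group in 10 of the 16 mitochondrial genes and in 3 of the 19 cytosolic genes, and mouse 1 was highest in 12 of the 16. The spread among leukemia mice had a median SD of 0.17 over the mitochondrial genes, 0.13 over the cytosolic genes and 0.13 over all genes.

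Because several amino acids have 1 cytosolic and 1 mitochondrial gene, 12 such pairs could be set side by side (Tarsl2 left aside). In leukemia minus whole marrow the mitochondrial partner had the smaller difference in 9 of 12 pairs and the larger in Iars, Lars and Rars, with a median of -0.11 for mitochondrial minus cytosolic. The gaps in Nars (-0.02), Mars1 (-0.04), Sars (-0.11), Vars (-0.11) and, the other way, Rars (0.12) were no wider than the larger SE of the pair. No error of the gaps was computed, so the count of signs is a description only. The widest gaps were -1.08 in the histidine pair (0.33 in Hars2 and 1.42 in Hars) and 0.53 in the isoleucine pair (1.44 in Iars2 and 0.92 in Iars). In leukemia minus Lin- the mitochondrial partner was lower in 9 of 12 pairs, with a median of -0.38, the exceptions being Iars, Lars and Mars1. In Lin- minus whole marrow it was lower in 4 and higher in 8, with a median of 0.27.

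**Figure D4:**
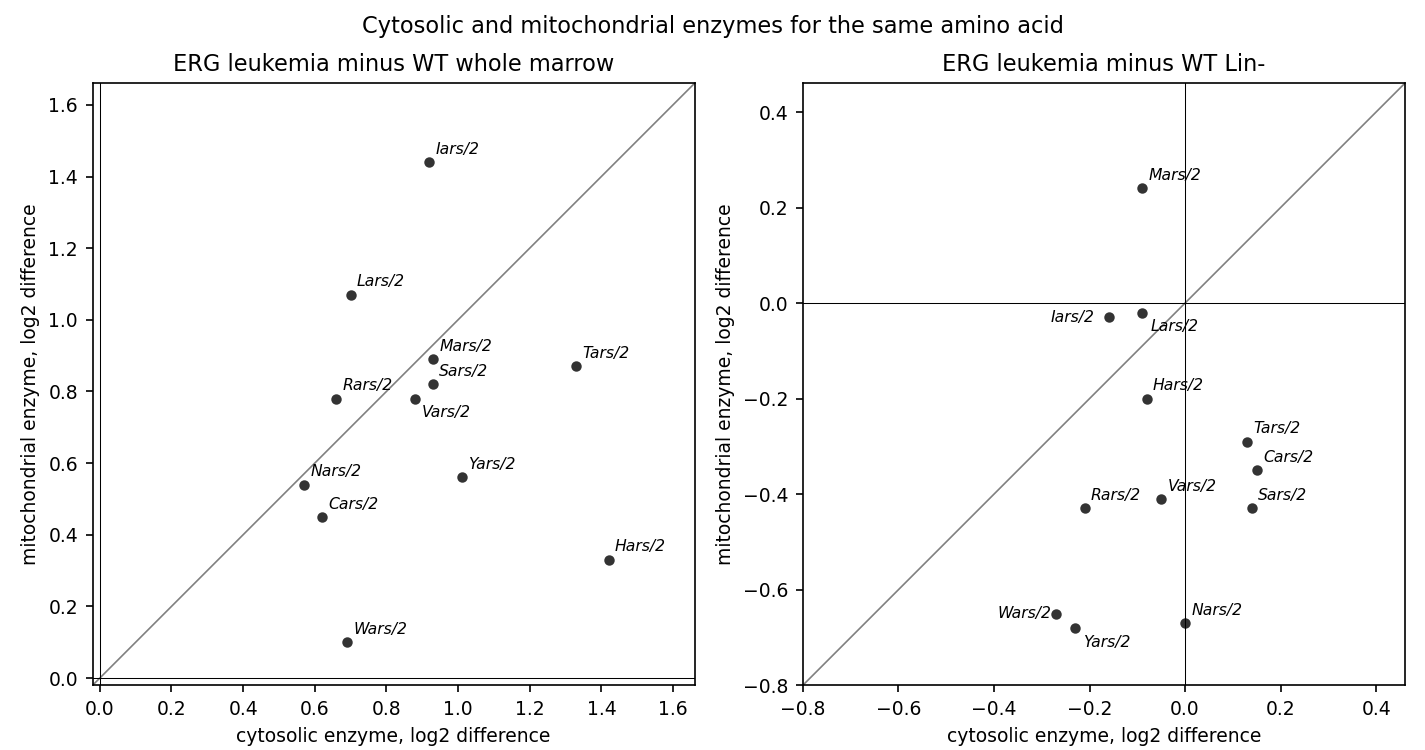
Log2 difference of the mitochondrial enzyme (vertical axis) against that of the cytosolic enzyme for the same amino acid (horizontal axis), 12 pairs, with leukemia minus whole marrow left and leukemia minus Lin- right. Points below the diagonal have the smaller mitochondrial value, which holds for 9 of 12 pairs in each panel, and panels differ in axis range.

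The scaffold proteins of the multisynthetase complex were measured as well. Aimp2 read 7.86, 8.27 and 8.01 in leukemia, 8.07, 8.45 and 8.16 in Lin- and 6.85, 6.54 and 6.85 in whole marrow. It rose over whole marrow by 1.30 ± 0.15 (SE), 2.46-fold, limma adjusted p = 0.000904. Aimp1, at 7.32, 7.32 and 7.13 in leukemia, 7.42, 7.64 and 7.28 in Lin- and 6.58, 6.67 and 6.56 in whole marrow, rose by 0.65 ± 0.10 (1.57-fold, limma adjusted p = 0.00286). Neither passed against Lin- (-0.18 ± 0.15 and -0.19 ± 0.10).

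Eef1e1, the third scaffold protein, followed another course. It read 8.78, 8.86 and 8.99 in leukemia, 9.48, 9.76 and 9.47 in Lin- and 8.52, 8.10 and 8.33 in whole marrow, without overlap between any of the groups. It rose over whole marrow by 0.56 ± 0.13 (1.47-fold, limma adjusted p = 0.0129) and was 1.62-fold lower than in Lin- (-0.69 ± 0.13, limma adjusted p = 0.0138). Together with 6 further genes for proofreading and selenocysteine tRNA charging, 8 of 9 rose over whole marrow (median 0.77), against 14.6% of all genes. Aarsd1, an alanyl-tRNA editing protein (0.92 ± 0.10), was among the 8.

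Downstream and upstream steps were followed through gene lists. Of 23 measured genes for tRNA processing and modification, 16 rose over whole marrow (median 0.59) and 5 fell against Lin- (median -0.35). The shares over all genes were 14.6% higher over whole marrow and 5.74% lower against Lin-. Nsun2, a tRNA cytosine methyltransferase, rose over whole marrow by 1.02 ± 0.09 (2.03-fold), and Rpp38, a protein of RNase P, by 1.00 ± 0.14 (2.00-fold). Trmt61a, the catalytic subunit of an adenosine methyltransferase, was 1.66-fold lower than in Lin- (-0.73 ± 0.11), and Rpp40 was lower by 1.54-fold. The count of 5 was 1 without leukemia mouse 3, Lin- pool 1 or Lin- pool 2, 2 without whole marrow 3, and 3 without whole marrow 1 or leukemia mouse 2.

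For mitochondrial translation, 5 of 9 factors rose over whole marrow (median 0.59), led by Tsfm (0.99 ± 0.18), an exchange factor, and Mrrf (0.94 ± 0.15), which recycles ribosomes. Against Lin-, all 9 differences were below 0 (median -0.37) and Tufm, the factor that brings charged tRNA to the mitochondrial ribosome, fell by 0.58 ± 0.13 (limma adjusted p = 0.0334), a call lost without leukemia mouse 2 or 3 or Lin- pool 1 or 2. Of 4 genes that complete mitochondrial tRNA charging, Gatc alone rose over whole marrow (0.58 ± 0.12), with a median of 0.29. Of 4 cytosolic elongation factors, 3 rose over whole marrow (median 0.38), among them Eef1d (0.60 ± 0.13) and Eef2 (0.39 ± 0.09), and 0 passed against Lin-. Only 1 of the 4 passed with either other scaling of the arrays. For these 3 lists the shares over all genes were 14.6% higher over whole marrow, 2.95% higher against Lin- and 5.74% lower against Lin-. The charging list, with 1 gene of 4, is too short to set against such a share.

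Of 19 genes for amino acid supply and known ATF4 targets, 9 rose over whole marrow, 1 fell and 9 did not pass, with a median of 0.31. Of all genes, 14.6% were higher and 9.93% lower. Slc7a5, which carries leucine and other large amino acids into cells, read 10.14, 10.52 and 10.26 in leukemia, 10.00, 10.34 and 10.09 in Lin- and 8.43, 8.16 and 8.85 in whole marrow. It was 3.55-fold higher in leukemia than in whole marrow (1.83 ± 0.18, limma adjusted p = 0.000666), and leukemia and Lin- overlapped. Slc7a11, the cystine importer, went the other way at 4.97, 4.24 and 4.43 in leukemia, 4.35, 4.14 and 4.16 in Lin- and 7.08, 6.49 and 6.32 in whole marrow (-2.08 ± 0.23, limma adjusted p = 0.000881). Its leukemia and Lin- values lay below the median intensity, so the size of this difference is limited by the dim signal. Atf4 itself did not pass (0.29, limma adjusted p = 0.261).

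Against Lin-, 1 of these 19 fell and 0 rose, with a median of 0.28, while 5.74% of all genes were lower and 2.95% higher. Phgdh, which starts serine synthesis, read 5.25, 4.96 and 5.92 in leukemia and 6.52, 6.29 and 6.41 in Lin-, a difference of -1.03 ± 0.24 (limma adjusted p = 0.0324). Leukemia mouse 3 lay nearer to the Lin- pools than the other two did, and the call was lost without whole marrow 1, any Lin- pool, or leukemia mouse 1 or 2.

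**Figure D5:**
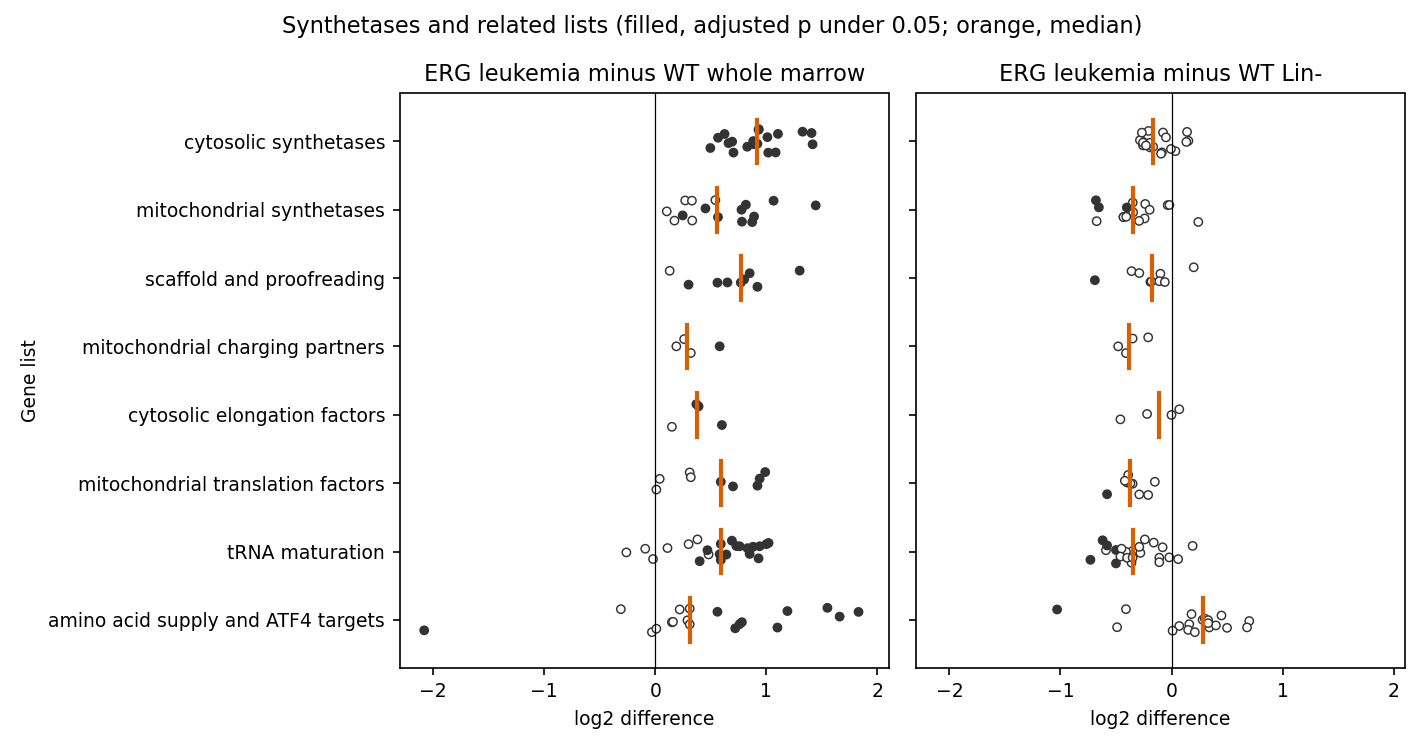
Log2 difference of each gene (horizontal axis, points, filled where the adjusted p was under 0.05) in the synthetase sets and the related lists, with the median of each as a bar, leukemia minus whole marrow left and leukemia minus Lin- right. Against whole marrow every set median is above 0, from 0.29 to 0.92, and against Lin- every set median except that of the amino acid supply list (0.28) is below 0.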

How the data were processed

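The deposited values are linear intensity values that the authors made with RMA in Partek, per the submitters' processing notes (versions and genome build not stated there). RMA scales arrays toward a common distribution, so values are relative and a shift shared by all genes is largely removed. The deposited arrays were still unequal above the median. Their 75th percentiles ran from 123.5 intensity units in whole marrow 2 to 147.4 in Lin- pool 1. The design allowed for linear values, and log2 was taken with no further normalization.

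Of 28853 probe sets, 21789 had 1 gene symbol in the platform annotation, 1621 several and 5443 none. The probe set with the highest mean stood for a gene, giving 19938 genes. Differences were fitted over the 9 arrays in 1 model (R 4.3.3, limma 3.58.1, with lmFit, contrasts.fit and eBayes, two-sided), with Benjamini-Hochberg adjustment over all genes. The script was tested on simulated data. ± SE is limma's moderated standard error and intervals are its 95% intervals. Each p-value sets a difference against a moderated spread per gene, estimated over all 9 arrays. That spread mixes single mice (wild type and leukemia whole marrow) with Lin- pools that average 3 mice each. The test of leukemia against whole marrow thus also draws on the spread between pools. With only the 2 groups compared in the fit, Ears2 had limma adjusted p = 0.0984 in that comparison, against 0.0429.

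The members and lists were chosen with earlier results of these data known, so no test of a list is given. Genes chosen to be named were, in each comparison, the 3 cytosolic and 3 mitochondrial members with the widest difference past the threshold, members past it against their class, Lars2, Wars, Eprs, Aimp1, Aimp2 and Eef1e1, and up to 2 genes of each related list. Several were given in brief without array values, among them Nsun2, Rpp38, Trmt61a, Tsfm, Mrrf, Gatc, Eef1d, Eef2, Qars, Nars, Cars and Atf4. Nars2, Farsb, Ears2, Qars, Nars, Cars and Atf4 were added after their values were seen. Other scalings (75th percentile centring and cyclic loess), the samples in the fit, the eBayes settings, a filter on dim genes, the choice of probe set, log2(value + 16), a replicate block and leaving out each array were tried as alternatives. Protein sequences were not analysed here.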

Additional observations from a re-analysis of the deposited data

How the results depend on the processing

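All 19 cytosolic genes rose in leukemia against whole marrow under every alternative run, and the count over all 35 synthetases stayed between 27 and 29. Against Lin-, the count of synthetases that fell was 3 with either other scaling and with the trend and robust setting, and 6 with log2(value + 16), against 4. Leaving out 1 array at a time, it ran from 0 to 4, with Yars2 lost without Lin- pool 1 or leukemia mouse 3, Wars2 lost without any Lin- pool or leukemia mouse 2 or 3, Ears2 lost without Lin- pool 1, and Rars2 lost in all but the fits without whole marrow 2 or 3. Rars2 also lost its call with 75th percentile centring (-0.39), cyclic loess (-0.33) and the trend and robust setting. The limit of the arrays shows in Aars2, Ears2 and Pars2, which averaged below the median intensity.

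With 75th percentile centring the median of all genes in Lin- minus whole marrow was -0.16, against -0.04 on the deposited scaling, and the Lin- medians were 0.93 (cytosolic) and 0.82 (mitochondrial). Cyclic loess gave 0.74 and 0.40 in leukemia minus whole marrow and 0.81 and 0.79 in Lin- minus whole marrow, and log2(value + 16) gave 0.78 for the mitochondrial Lin- median. Without the dim members, an alternative chosen after seeing the data, the mitochondrial medians were 0.78 in leukemia minus whole marrow and 1.16 in Lin- minus whole marrow. In leukemia minus Lin-, Nars (0.036), Iars2 (0.007) and Lars2 (0.022) turned above 0 with 75th percentile centring, as did Hars (0.012), Lars (0.009), Mars1 (0.006), Nars (0.050), Vars (0.024), Iars2 (0.060) and Lars2 (0.071) with cyclic loess, none of them called. With only the 2 groups compared in the fit, the related lists had 1 gene higher and 3 lower in leukemia against Lin-, and with log2(value + 16) they had 1 lower in Lin- against whole marrow. The cause was not tested.

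Leaving out 1 array at a time, leukemia minus Lin- ran from -0.051 to 0.196 in Gars, -0.241 to 0.095 in Hars, -0.165 to 0.112 in Iars2, -0.131 to 0.097 in Lars2, -0.171 to 0.014 in Mars1, -0.094 to 0.097 in Nars, -0.015 to 0.315 in Tars and -0.099 to 0.025 in Vars. Wars2 ran from -0.025 to 0.176 in leukemia minus whole marrow. All genes called lower in leukemia against whole marrow ran from 1248 to 1915, and against Lin- from 268 to 827 higher and from 490 to 1174 lower. Genes of the related lists called against Lin- ran from 0 to 1 higher and from 2 to 8 lower, those lower in Lin- against whole marrow from 1 to 3, and the cytosolic Lin- median from 0.92 to 1.12.

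The wild type titles share replicate numbers. Deviations from the group mean correlated at 0.312, -0.009 and -0.009 between arrays of the same number, and at -0.203 to 0.147 between arrays of unlike numbers. The highest value was thus that of number 1, while numbers 2 and 3 gave values near 0. Whether the numbers mark pairs is not settled, and they were not taken as pairs in the main fit. With the replicate block, 34 of 35 synthetases rose in Lin- against whole marrow, Hars2 (0.53, limma adjusted p = 0.0573) being the exception. The count was 30 with cyclic loess and 33 to 35 leaving out 1 array, where Cars was lost without whole marrow 1 or 3 or Lin- pool 2, and Hars2 without whole marrow 1 or 2 or Lin- pool 1 or 2.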
